A study of Mus musculus with 4 samples.

Results

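The genes described are 10 transcripts that mammalian cells make within minutes of a stimulus or of physical handling: FOS, FOSB, JUN and JUNB, whose proteins pair to form the transcription factor AP-1, the transcription factors EGR1 and ATF3, the nuclear protein IER2, the phosphatase DUSP1, and HSPA1A and HSPA1B, the 2 stress-inducible HSP70 chaperones. They were taken by name, without use of their values, and all 10 were among the 25824 gene symbols of the 4 count matrices. Each of the 10 had at least 1 count in WT 1, WT 2 and Ctcf-cKO 1, while HSPA1B had none in Ctcf-cKO 3, where 9 had a count.

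The data were droplet-based single-cell RNA sequencing (ddSEQ, with 3′ libraries) of dissociated testes of 4 mice labelled as 15 weeks old, background strain C56BL/6J as spelled in the labels. The 2 WT mice, called WT 1 and WT 2 after their replicate numbers, were Ctcf wt/wt. The 2 mutants, Ctcf-cKO 1 and Ctcf-cKO 3, were Stra8-iCre-Ctcf f/Δ, with 1 floxed and 1 deleted allele of Ctcf, which encodes the chromatin insulator protein CTCF. Stra8-iCre is active in male germ cells from the spermatogonial stage, so somatic cells of the mutants kept the floxed allele beside the deleted allele. Testes were digested with collagenase and DNase at a warm temperature before loading, and the filtrates of 2 tubes of each mutant mouse were pooled.

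Immediate early genes need no new protein for their induction: kinases activate factors already bound at their promoters, and the messages last for minutes because AU-rich elements speed their decay. FOS and FOSB proteins pair with JUN and JUNB at AP-1 sites, EGR1 binds GC-rich sites, ATF3 forms dimers with JUN proteins, and DUSP1 removes phosphate from the MAP kinases that induce it, closing a feedback loop. HSPA1A and HSPA1B are switched on by heat shock factor 1 when proteins unfold. Enzymatic dissociation of a tissue is a known inducer of all these genes, and they are often watched in single-cell data for that reason. In the testis, spermatocytes and spermatids carry their own HSP70 relatives, HSPA2 and HSPA1L, which are made during development without stress.

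The genes lie at separate places in the GRCm38 build, apart from the HSP70 pair. FOS is on chromosome 12 (chr12:85473890-85477273, forward strand), FOSB on chromosome 7 (chr7:19302696-19310051, reverse), JUN on chromosome 4 (chr4:95049034-95052222, reverse, a single exon), JUNB on chromosome 8 (chr8:84974484-84978718, reverse) and IER2 on the same chromosome (chr8:84661331-84662852, reverse, a single exon). ATF3 is on chromosome 1 (chr1:191170296-191218039, reverse) and DUSP1 on chromosome 17 (chr17:26505590-26562128, reverse). HSPA1B (chr17:34956436-34959238, reverse) and HSPA1A (chr17:34969190-34972156, reverse), each a single exon, stand in tandem beside HSPA1L (chr17:34972703-34979285, forward). The coding sequences of HSPA1A and HSPA1B were 99.4% identical (1918 of 1926 aligned bases), against 82.8% between HSPA1A and HSPA1L, so reads can be split between HSPA1A and HSPA1B or lost, and the values of both are uncertain.

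Promoter sequence was available from RefSeq (GRCm38.p6) for 8 of the 10 genes. The 150 bases before the transcription start are shown for the 4 genes that held a searched motif in the 250 bases before the start, 5′ to 3′ on the gene's strand, with the motif in capitals. In HSPA1A, HSPA1B and JUN the capitals mark GAANNTTC, a pair of facing GAA units to which heat shock factor binds, and in DUSP1 they mark TGACGTCA, the cyclic AMP response element.
HSPA1A (chr17:34972157-34972306): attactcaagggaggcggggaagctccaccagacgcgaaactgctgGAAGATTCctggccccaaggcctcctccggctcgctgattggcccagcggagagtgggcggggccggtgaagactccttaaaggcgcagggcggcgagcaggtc
HSPA1B (chr17:34959239-34959388): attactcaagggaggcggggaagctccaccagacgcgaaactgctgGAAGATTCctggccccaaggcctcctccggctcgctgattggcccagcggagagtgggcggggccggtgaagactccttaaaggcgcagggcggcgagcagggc
JUN (chr4:95052223-95052372): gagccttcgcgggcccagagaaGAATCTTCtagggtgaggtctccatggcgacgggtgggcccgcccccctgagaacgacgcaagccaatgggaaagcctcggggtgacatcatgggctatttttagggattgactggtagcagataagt
DUSP1 (chr17:26508473-26508622): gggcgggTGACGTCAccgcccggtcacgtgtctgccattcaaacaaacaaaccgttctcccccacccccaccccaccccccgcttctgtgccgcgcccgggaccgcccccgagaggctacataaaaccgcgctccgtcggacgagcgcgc

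The HSPA1A and HSPA1B stretches matched at 149 of 150 bases, so the tandem pair shares its proximal promoter as well as its coding sequence. The GAANNTTC letters lay at bases -104 to -97 in both and at -128 to -121 in JUN, and TGACGTCA lay at -143 to -136 in DUSP1. Over the 250 upstream bases of all 32851 promoters of the table, 6.69% held GAANNTTC and 1.55% TGACGTCA, while the AP-1 site TGANTCA was in 6.75% and the serum response element core in 1.47%. All 4 motifs were searched on both strands, and no gene held more than 1 of them. None of these letters was in the window of FOS, FOSB, JUNB or ATF3, which says nothing of sites outside it. A match is a description of the letters and not of a bound site.

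The matrices held 24403 barcodes in all, between 5603 and 6474 per mouse. The libraries summed to 6701235 counts in WT 1, 4859455 in WT 2, 2652665 in Ctcf-cKO 1 and 1593546 in Ctcf-cKO 3, so a low level was measured best in WT. Levels are given as CPM, counts per 1e6 counts of the same barcodes. A count of 0 was read as allowing up to 3 counts, which is 0.448 CPM in WT 1 and 1.88 CPM in Ctcf-cKO 3 over all barcodes, and such limits and intervals cover counting error only. Barcodes under 200 genes numbered 1367, 4392, 5592 and 6114 in WT 1, WT 2, Ctcf-cKO 1 and Ctcf-cKO 3, and 811 barcodes were kept as cells. The targeted gene, CTCF, was at 16.4 and 10.1 CPM in WT and at 1.51 and 4.39 CPM in Ctcf-cKO, and whether the 3′ reads fall inside the deleted part of the gene is not given in the sources used here. Of the barcode sequences, between 723 and 1310 were shared by a pair of libraries, and among the cells 1 was shared.

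Summed over all barcodes of a mouse, the AP-1 genes, EGR1, IER2 and DUSP1 were higher in both Ctcf-cKO mice than in both WT mice. FOS was at 32.5 CPM in WT 1, 9.47 in WT 2, 101 in Ctcf-cKO 1 and 106 in Ctcf-cKO 3. JUN, its main partner, was at 11.9, 6.79, 58.4 and 50.2 CPM in the same order, and JUNB, a JUN relative with weaker activation, at 18.8, 6.59, 72.0 and 72.8 CPM. The 2 mutants lay close together for these genes, and both were above both WT mice, as they were for 32.3% of all genes tested, while WT 1 was above WT 2 each time.

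FOSB, a FOS relative, was the lowest of the AP-1 genes, at 7.46, 1.65, 15.8 and 16.3 CPM in WT 1, WT 2, Ctcf-cKO 1 and Ctcf-cKO 3. EGR1, a zinc finger factor, was at 13.4, 7.61, 55.8 and 48.3 CPM. IER2 was at 17.3, 5.76, 44.9 and 49.6 CPM, and both mutants were above both WT mice for all 3 genes. DUSP1 differed least among the genes that moved, at 26.9, 24.5, 70.5 and 40.2 CPM, and again both mutants were above both WT mice.

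ATF3 and the HSP70 pair did not share this pattern. ATF3 rested on 21, 6, 2 and 6 counts (3.13, 1.23, 0.754 and 3.77 CPM), and the mutants were the lowest and the highest mouse. HSPA1A had 19, 25, 10 and 13 counts (2.84, 5.14, 3.77 and 8.16 CPM), with overlapping groups. HSPA1B had 10, 2, 14 and 0 counts, and the limit of 1.88 CPM on the 0 of Ctcf-cKO 3 lies above its 1.49 and 0.412 CPM in WT, so the order of these 3 mice is not known.

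**Figure D1:**
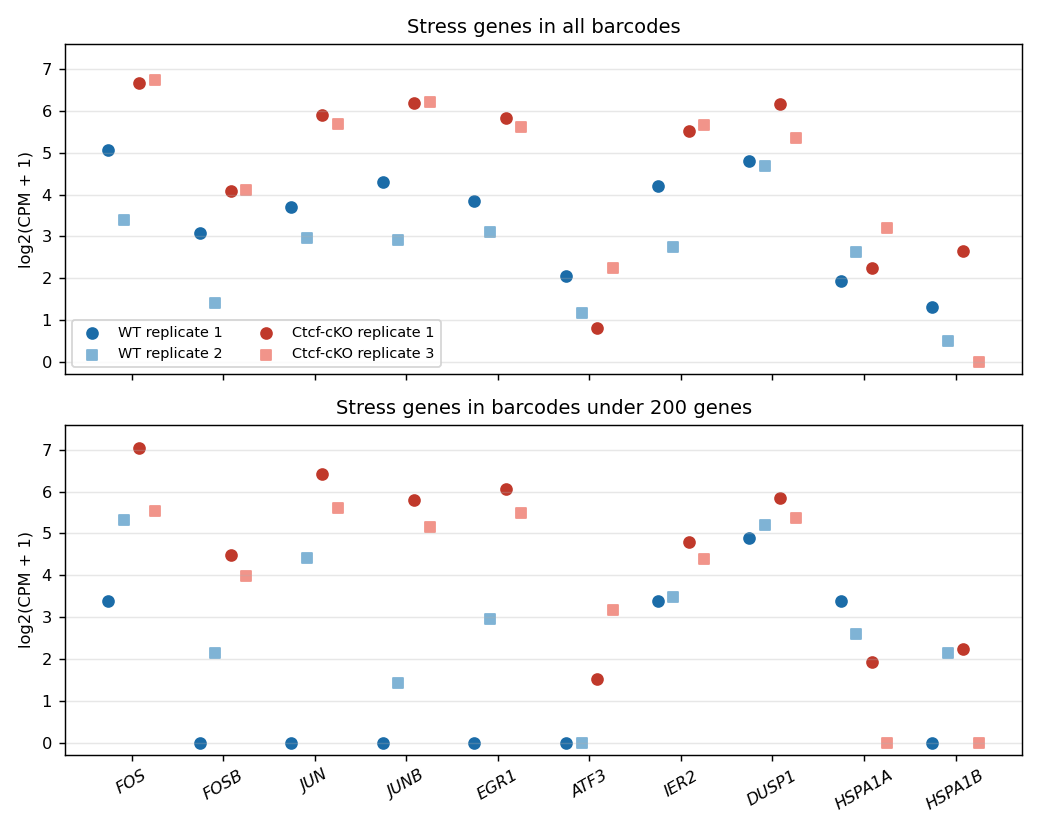
Level of the 10 stress genes in each mouse as log2(CPM + 1), over all barcodes (upper panel) and over barcodes under 200 genes (lower panel); each point is 1 mouse. In all barcodes FOS, FOSB, JUN, JUNB, EGR1, IER2 and DUSP1 are higher in both Ctcf-cKO mice, with FOS at 101 and 106 CPM against 32.5 and 9.47 CPM in WT, while ATF3, HSPA1A and HSPA1B overlap.

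In edgeR's quasi-likelihood test over all barcodes, with Benjamini-Hochberg adjustment over 14552 genes, 7 of the 9 stress genes tested were called at an adjusted p under 0.05, all higher in Ctcf-cKO. HSPA1B was not tested because its counts were too low. Across all genes 28.5% were called, and 18.4% were called higher, so the count of the stress genes is to be read against this share. In simulated data at this depth 117 of 200 genes with a log2 fold of 2 were recovered, with 23 false calls. The log2 difference (Ctcf-cKO minus WT, with its standard error) was 2.36 ± 0.42 for FOS (adjusted p = 0.00183), 2.59 ± 0.37 for JUN (adjusted p = 0.000375) and 2.56 ± 0.41 for JUNB (adjusted p = 0.000923). It was 2.37 ± 0.37 for EGR1 (adjusted p = 0.00072), 2.09 ± 0.45 for IER2 (adjusted p = 0.00522), 1.86 ± 0.64 for FOSB (adjusted p = 0.0473) and 1.19 ± 0.33 for DUSP1 (adjusted p = 0.0204). ATF3 (-0.02 ± 1.01, adjusted p = 0.990) and HSPA1A (0.60 ± 0.77, adjusted p = 0.593) did not pass. The median difference of the 9 genes was 2.09 on the log2 scale, with 8 of them above 0, beside -0.04 over all genes tested. The call for FOSB was lost without WT 2 (adjusted p = 0.153), without Ctcf-cKO 1 (0.157) and without Ctcf-cKO 3 (0.142), with library totals in place of TMM factors (0.0622) and with counts divided by 4 (0.0502), with a range of 0.00521 to 0.157 over its alternatives. The call for DUSP1 was lost without Ctcf-cKO 1 (log2 difference 0.69, adjusted p = 0.291, range 0.00368 to 0.291). The count of all genes called was 4150, and it was 1710 without Ctcf-cKO 1 and 1989 without Ctcf-cKO 3.

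Markers of somatic cells moved with these genes over all barcodes. The 13 Leydig markers, all with a count in every mouse, summed to 606 and 217 CPM in WT 1 and WT 2, and to 7258 and 6441 CPM in Ctcf-cKO 1 and Ctcf-cKO 3. The 13 macrophage markers summed to 148, 340, 3755 and 3918 CPM, with CD74, C1QA and C1QC at 0 in WT 1, and the 12 peritubular or fibroblast markers to 321, 259, 1812 and 1108 CPM. The 12 Sertoli markers summed to 52.2, 135, 762 and 882 CPM, and the 5 red blood cell markers to 198, 18.5, 2139 and 1404 CPM. Sums over all barcodes are bulk values, in which fewer cells of a type and less RNA per cell cannot be told apart, and the part of the somatic share in the differences above was not tested.

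The counts of the stress genes did not spread over the barcodes as those of all genes did. Of the 3012 counts of the 10 genes over the 4 mice, 26.1% lay in the 181 cells with a somatic profile, which held 5.28% of the counts of all genes. Cells with a germ cell profile held 10.5% of the stress gene counts and 32.2% of all counts. Barcodes under 200 genes held 25.1% of the former and 16.0% of the latter. A further 16.1% lay in 132 barcodes that were too small to be kept as cells but had a count for at least 3 markers of 1 somatic type. These held 1.01% of all counts. The limit for a cell differed by library, at 4351.5 counts in WT 1, 2383.5 in WT 2, 1299 in Ctcf-cKO 1 and 910.5 in Ctcf-cKO 3. A barcode too small in WT 1 could thus have been a cell in a mutant. The part of these limits in the shares and in the values of somatic-like cells was not tested.

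The mice differed in where these counts lay. In WT 1, 48.9% of the 910 stress gene counts were in the small barcodes with somatic markers and 8.68% in somatic-like cells. In WT 2 the germ-like cells held 28.3% of 336 counts and the small barcodes with somatic markers 2.98%. In Ctcf-cKO 1 and Ctcf-cKO 3 the somatic-like cells held 33.5% of 1136 and 48.3% of 630 counts, and barcodes under 200 genes 42.7% and 30.3%. The last values stand beside 40.8% and 46.9% of the counts of all genes in the same barcodes.

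**Figure D2:**
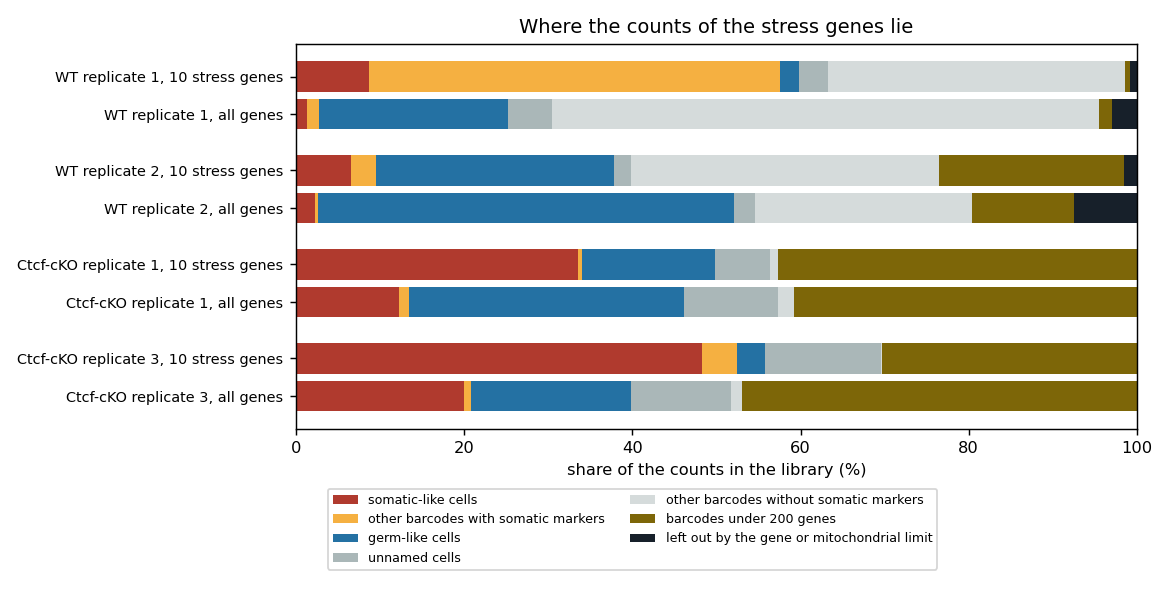
Share of the library's counts (%) that lay in each group of barcodes, for the 10 stress genes together and for all genes, in each mouse; each bar sums to 100%. In WT 1 the small barcodes with somatic markers hold 48.9% of the stress gene counts and 1.43% of all counts, while in both Ctcf-cKO mice somatic-like cells and barcodes under 200 genes hold most of them.

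Cell classes came from clusters made without the stress genes and their relatives, and were named by marker lists. Somatic-like cells (Leydig-, Sertoli-, macrophage- and peritubular or fibroblast-like) numbered 10, 14, 60 and 97 in WT 1, WT 2, Ctcf-cKO 1 and Ctcf-cKO 3. Germ-like cells (spermatocyte-, round spermatid- and elongating spermatid-like) numbered 56, 202, 90 and 56, and 226 cells stayed unnamed. Of the unnamed cells, 159 formed a cluster with 7 of 18 elongating spermatid markers higher, led by haemoglobin genes. No endothelial or spermatogonial cluster was found. The 18 elongating spermatid markers summed to between 85040 and 239231 CPM in the somatic-like cells, beside 113029 to 146273 CPM in germ-like cells, so transcripts of germ cell genes were counted in the somatic-like barcodes as well.

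In somatic-like cells FOS was at 236 CPM in WT 1, 200 in Ctcf-cKO 1 and 324 in Ctcf-cKO 3, and had no count in the 14 cells of WT 2, which allows up to 28.1 CPM. JUNB was at 283, 65.5, 258 and 132 CPM in WT 1, WT 2, Ctcf-cKO 1 and Ctcf-cKO 3, and DUSP1 at 70.7, 122, 191 and 87.9 CPM. WT 2 was the lowest mouse for FOS and JUNB and not for DUSP1. JUN was at 47.1, 0, 105 and 119 CPM, EGR1 at 58.9, 9.35, 166 and 91.1 CPM and IER2 at 177, 0, 182 and 135 CPM in the same order. Both mutants were above both WT mice for JUN and EGR1, 2 of the 6 genes that could be tested, beside 25.6% of all genes tested, and the groups overlapped for FOS, JUNB, IER2 and DUSP1. FOSB had 4, 0, 14 and 12 counts, HSPA1A 0, 0, 5 and 9, HSPA1B 1, 0, 4 and 0, and ATF3 a single count, in WT 2. The WT 2 cells included no Leydig-like cell and 10 Sertoli-like cells of 14, whereas WT 1 had 6 Leydig-like cells of 10.

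In germ-like cells the mice differed by gene. FOS was at 0 in WT 1, 4.57 CPM in WT 2, 51.8 in Ctcf-cKO 1 and 0 in Ctcf-cKO 3, where 3 counts would be 9.89 CPM. JUNB was at 1.33, 4.15, 36.9 and 56.0 CPM and DUSP1 at 7.29, 15.8, 47.2 and 0 CPM. The Leydig markers in the same cells summed to 20.5, 144, 4015 and 2429 CPM, and the fibroblast markers to 11.3, 120, 2181 and 277 CPM. Ctcf-cKO 1 thus had the highest level of FOS, DUSP1 and of both marker lists in its germ-like cells.

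Within mice, the somatic-like cells were compared with the germ-like cells of the same animal, with the mouse as a block. Of the 10 stress genes 3 had enough counts to be tested, FOS, JUNB and DUSP1, and all 3 were called higher in somatic-like cells, where 17.1% of the 4897 genes tested were called and 10.5% were called higher. The log2 difference was 4.43 ± 1.34 for FOS (edgeR, adjusted p = 0.0468), 3.80 ± 0.87 for JUNB (adjusted p = 0.0202) and 3.39 ± 0.68 for DUSP1 (adjusted p = 0.0149). The count of 3 of 3 depends on the filter on low counts, which a gene could pass through its somatic-like sums alone. With no filter 5 of 10 were called, FOS, JUNB, DUSP1, EGR1 and IER2. JUNB and DUSP1 were higher in the somatic-like cells of all 4 mice and FOS in 3 of 4, with WT 2 as the exception. Without WT 2 the adjusted p-values rose to 0.0611 for FOS, 0.0713 for JUNB and 0.0596 for DUSP1, while 3 other stress genes of the 7 then tested were called, JUN (adjusted p = 0.049), EGR1 (0.044) and IER2 (0.044). FOS was also lost without Ctcf-cKO 3 (0.112), with DESeq2 and with the stress genes kept in the clustering. It was lost as well with small barcodes with somatic markers added. Without Ctcf-cKO 1 only JUNB and DUSP1 were tested, and both were called. Over the alternatives the adjusted p ran from 0.000131 to 0.112 for FOS, from 5.66e-06 to 0.0713 for JUNB and from 3.55e-08 to 0.0596 for DUSP1. With library totals in place of TMM factors the median of all genes shifted from -0.12 to -0.33, and FOS was not called (log2 difference 4.24, adjusted p = 0.0631). With these totals the share of calls that were higher fell from 61.1% to 46.4%.

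**Figure D3:**
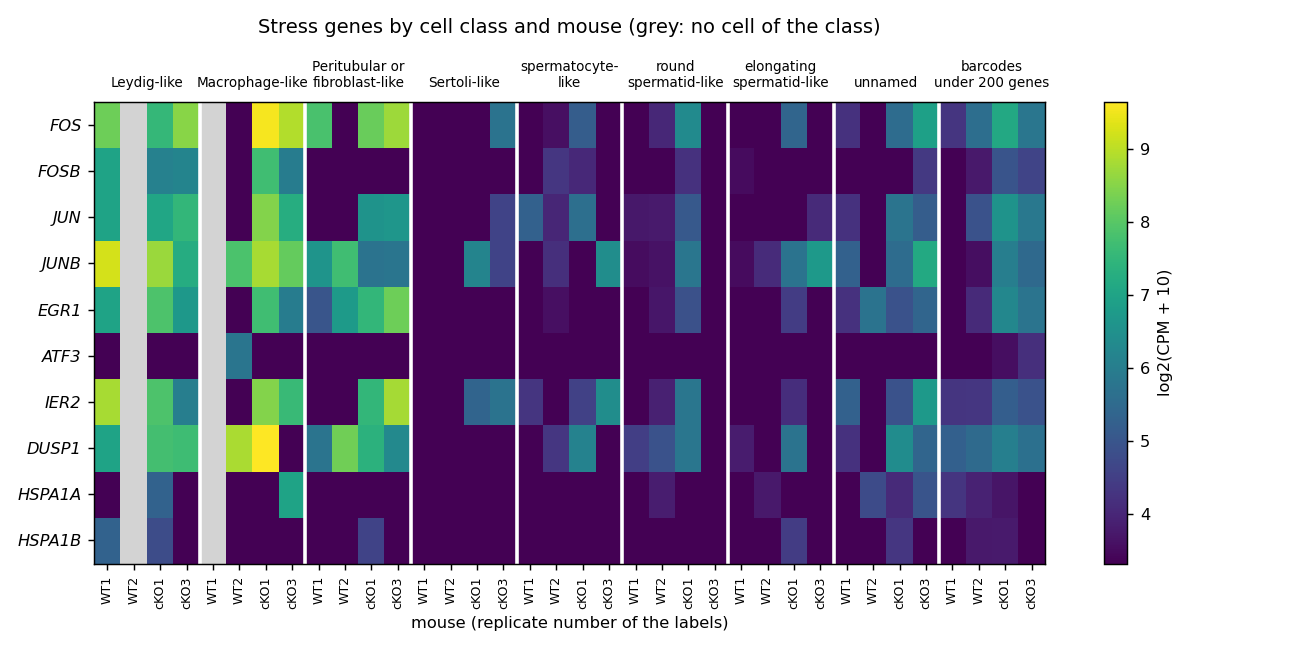
Level of the 10 stress genes as log2(CPM + 10) in each cell class and mouse, on a colour scale; grey marks a class with no cell in that mouse. Leydig-, macrophage- and peritubular or fibroblast-like cells carry the brightest fields, and Sertoli-like cells stay near the floor except in the mutants.

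The somatic classes differed in their stress gene counts. In Leydig-like cells, the steroid-producing cells between the tubules, FOS was at 294, 177 and 359 CPM in WT 1, Ctcf-cKO 1 and Ctcf-cKO 3 (WT 2 had none of these cells), JUNB at 587, 400 and 141 CPM and EGR1 at 117, 224 and 93.7 CPM. In macrophage-like cells FOS was at 739 CPM in the 4 cells of Ctcf-cKO 1 and at 472 CPM in the 25 cells of Ctcf-cKO 3, with no count in the 2 cells of WT 2. In peritubular or fibroblast-like cells FOS was at 218, 0, 284 and 408 CPM in 3, 2, 16 and 20 cells, and FOSB had no count in any mouse. The 218 CPM of WT 1 came from 1 of its 3 cells. The ranges of FOS over mice overlapped between Leydig-like and fibroblast-like cells.

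The cells labelled Sertoli-like, after the nurse cells inside the tubules, had the fewest stress gene counts of the somatic classes. The label is weak in WT 2, where the Sertoli markers summed to 484 CPM, against 4056, 3607 and 3450 CPM in the Sertoli-like cells of WT 1, Ctcf-cKO 1 and Ctcf-cKO 3 and 517 CPM in the germ-like cells of Ctcf-cKO 3. The elongating spermatid markers in the same cells summed to 109714, 283674, 193439 and 204338 CPM, above every germ-like sum except in WT 1. Of the 10 genes FOS, JUN, JUNB and IER2 had a count there, 14 counts in all, and none of them in the 11 WT cells. FOSB, EGR1, ATF3, DUSP1, HSPA1A and HSPA1B had no count in the 42 cells. At least 1 stress gene had a count in 5 of the 42 Sertoli-like cells (11.9%), against 27 of 67 Leydig-like (40.3%), 20 of 31 macrophage-like (64.5%) and 22 of 41 peritubular or fibroblast-like cells (53.7%). When each cell was thinned to 1000 counts, these shares were 6.77%, 30.6%, 50.3% and 37.6%, in the same order of classes, and the median counts per cell were 2487, 3811, 3038 and 2894. The cells of a class come from few mice, and no test was made between the classes.

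Thinned in the same way, a stress gene was found in 30.1% of the somatic-like cells and in 7.20% of the germ-like cells, while the unthinned shares were 40.9% and 22.8% at median counts of 3172 and 8977 per cell. Pooled over mice the thinned share was 7.05% in spermatocyte-like, 7.18% in round spermatid-like and 7.30% in elongating spermatid-like cells, but the mice differed within each stage. The summed level of the 10 genes in these 3 stages was 38.7, 17.4 and 6.45 CPM in WT 1, 37.5, 45.1 and 10.7 CPM in WT 2, 145, 260 and 149 CPM in Ctcf-cKO 1 and 151, 0 and 104 CPM in Ctcf-cKO 3. Over all germ-like cells it was 13.3, 39.5, 207 and 69.2 CPM, from 20, 95, 180 and 21 counts, so that Ctcf-cKO 1 held most of the counts of the mutants. The thinned share in somatic-like cells was 31.7% over the cells of both mutants and 20.3% over those of both WT mice. In the same order it was 30.4% and 32.6% in Leydig-like and 50.6% and 46.6% in macrophage-like cells. In fibroblast-like cells it was 37.3% and 39.8%, and in Sertoli-like cells 9.25% and 0%. Sertoli-like cells were 31 of the 157 mutant and 11 of the 24 WT cells. These differences and the part of the mix of classes were not tested.

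Among germ cell stages, most of the stress gene counts came from 1 mutant. In round spermatid-like cells FOS was at 0, 6.17, 71.5 and 0 CPM in WT 1, WT 2, Ctcf-cKO 1 and Ctcf-cKO 3, with 33 counts in 9 of the 39 cells of Ctcf-cKO 1. None of the 10 genes had a count in the 12 round spermatid-like cells of Ctcf-cKO 3, where 3 counts would be 25.2 CPM. JUN, EGR1 and IER2 were likewise highest in Ctcf-cKO 1 in this class, at 23.8, 19.5 and 45.5 CPM. Cluster 2 held most of the round spermatid-like cells of Ctcf-cKO 1 and Ctcf-cKO 3 and none of WT 1, whose cells lay in clusters 6 and 7.

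JUNB was the only stress gene with enough counts to be tested in elongating spermatid-like cells. It was at 1.29, 7.14, 43.2 and 96.7 CPM, from 1, 2, 11 and 14 counts in 1, 1, 3 and 4 cells. It passed the filter on low counts through the Ctcf-cKO mice, where it was high, and with no filter 0 of 9 stress genes were called. It was under the filter with as many barcodes as the study counts, without batch correction and with the stress genes kept in the clustering. A counting interval takes each count as independent and leaves out the spread between cells and between mice. Over the pooled counts JUNB had a ratio of 22.0 with a 95% counting interval of 6.72 to 114. In edgeR's test its log2 difference of 4.17 ± 1.28 did not pass (adjusted p = 0.119, with 3.26% of 3133 genes called), while DESeq2 gave an adjusted p of 0.0301, the lowest of a range up to 0.612 over the alternatives. Of the genes tested, 3.19% were called higher. Spermatocyte-like cells held 51 stress gene counts in all, and ATF3, HSPA1A and HSPA1B had none there.

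Tests between genotypes within the cell classes gave no call for a stress gene in edgeR. In somatic-like cells 6 of the 10 could be tested and 0 passed, as did 0 of all 4208 genes (0%), while 279 genes had an unadjusted p under 0.05, none of them a stress gene. DESeq2 called 3 genes here and 0 of the stress genes. The log2 differences were 1.30 ± 1.14 for FOS, 2.37 ± 1.14 for JUN, 2.01 ± 0.96 for EGR1, 0.99 ± 1.14 for IER2, 0.49 ± 0.76 for DUSP1 and 0.26 ± 0.77 for JUNB, with adjusted p-values between 0.754 and 0.948. Without WT 1 the log2 differences were 9.02 for FOS, 7.80 for JUN, 8.30 for IER2 and 3.61 for EGR1. There WT 2 alone stood for WT, with 0 or 1 counts of these genes and 10 Sertoli-like cells of 14. The 4 genes passed the filter on low counts only through the Ctcf-cKO mice, where they were high, so this fit cannot decide on a difference. In simulated data at this depth 0 of 200 genes with a log2 fold of 2 were recovered, so a difference of that size was not detectable here.

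In round spermatid-like cells 1 stress gene was tested, DUSP1, at 12.7, 20.4, 45.5 and 0 CPM, with a log2 difference of 0.67 ± 1.22 (adjusted p = 0.999). There edgeR called 0 of 6534 genes, while 221 genes had an unadjusted p under 0.05. The count from DESeq2 was 20. In spermatocyte-like cells no stress gene passed the filter on low counts, and 1.32% of 3181 genes were called. The genotype difference of the somatic-like minus germ-like contrast was called for 0 of the 7 stress genes tested (0.0138% of 7239 genes), while JUNB alone had an unadjusted p under 0.05. DESeq2 called 0 of 6. Its value for JUNB was -3.35 ± 1.25 (adjusted p = 1). Without WT 2, 2 of the 7 were called, and 171 genes in all.

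**Figure D4:**
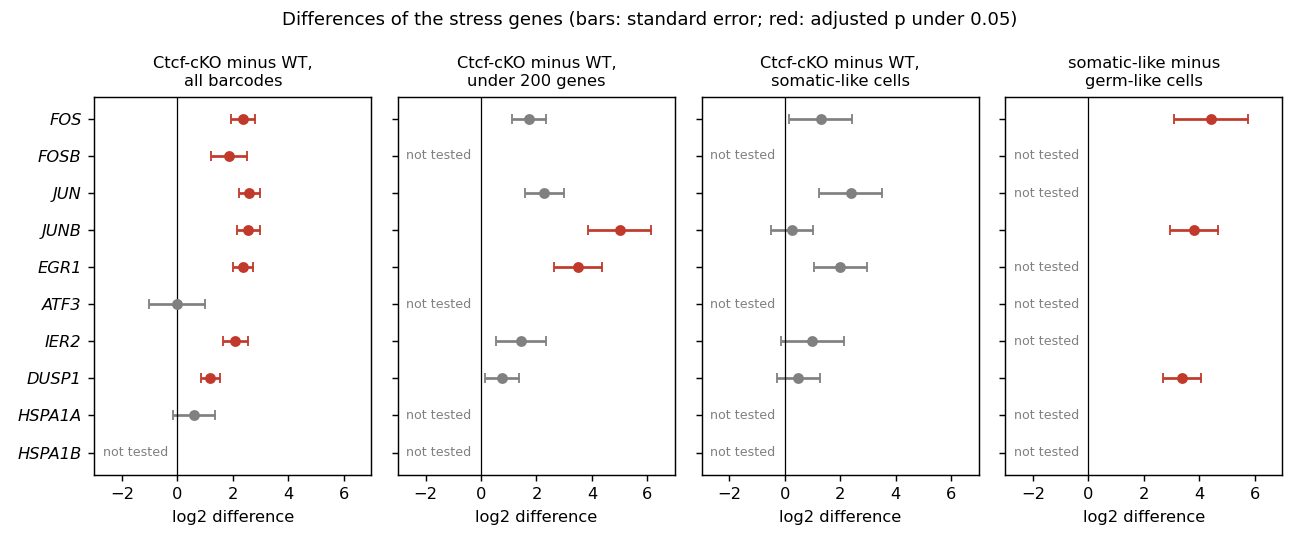
Log2 difference of each stress gene in 4 comparisons, with bars for the standard error; red marks an adjusted p under 0.05 in edgeR's quasi-likelihood test, grey the genes that did not pass, and genes under the filter on low counts are marked as not tested. In all barcodes 7 genes are red between 1.19 and 2.59, in somatic-like cells none, and in the comparison of somatic-like with germ-like cells FOS, JUNB and DUSP1 lie between 3.39 and 4.43.

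Barcodes under 200 genes are droplets with few transcripts, and the AP-1 genes and EGR1 had counts in those of both mutants. FOS was at 9.53 CPM in WT 1, 39.0 in WT 2, 131 in Ctcf-cKO 1 and 45.4 in Ctcf-cKO 3, and JUN at 0, 20.3, 84.2 and 48.1 CPM. JUNB was at 0, 1.69, 54.6 and 34.8 CPM and EGR1 at 0, 6.78, 65.7 and 44.1 CPM. Both mutants were above both WT mice for all 4 genes, as they were for 22.1% of the genes tested in these barcodes, though WT 1 had 104983 counts in these barcodes, where 3 counts are 28.6 CPM, so that its zeros do not separate it from WT 2. IER2 was at 9.53, 10.2, 26.8 and 20.1 CPM and DUSP1 at 28.6, 35.6, 56.4 and 40.1 CPM, again without overlap of the groups but with 1 and 3 counts in WT 1. FOSB had 0, 2, 23 and 11 counts, ATF3 0, 0, 2 and 6, HSPA1A 1, 3, 3 and 0 and HSPA1B 0, 2, 4 and 0, and these 4 genes were under the filter on low counts.

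Of 6 stress genes tested in these barcodes, 2 were called higher in Ctcf-cKO, JUNB (log2 difference 5.0 ± 1.14, edgeR, adjusted p = 0.00723) and EGR1 (3.49 ± 0.86, adjusted p = 0.0134), where 6.42% of 7879 genes were called and 5.84% were called higher. Both passed the filter on low counts through the Ctcf-cKO mice, where they were high, and with no filter both were still called, along with JUN. JUNB had 1 count in WT and 85 in Ctcf-cKO, a ratio of 32.3 with a 95% counting interval of 5.65 to 1291. EGR1 had 4 and 104 counts, a ratio of 9.88 with an interval of 3.75 to 37.0. Both intervals take each count as independent and leave out the spread between barcodes and between mice. JUN (2.28 ± 0.70, adjusted p = 0.0519), FOS (1.73 ± 0.61, 0.0929), IER2 (1.44 ± 0.91, 0.429) and DUSP1 (0.77 ± 0.61, 0.568) did not pass. Both calls were lost without Ctcf-cKO 1 (adjusted p = 0.485 and 0.540) and without Ctcf-cKO 3 (0.0756 and 0.117), and the lowest values over the alternatives were 0.000131 and 0.0011. Without WT 2 the count was 4 of 7, and without WT 1 it was 3 of 7, while all genes called numbered 506 with every mouse, 1344 without WT 2, 770 without WT 1, 132 without Ctcf-cKO 1 and 164 without Ctcf-cKO 3. In the alternative with barcodes under 100 genes JUN was called, and JUNB and EGR1 were not. With library totals in place of TMM factors the median of all genes shifted from 0.07 to -0.16, the share of calls that were higher fell from 90.9% to 79.4%, and JUNB and EGR1 were still called. The Leydig markers in these barcodes summed to 410, 339, 4876 and 4663 CPM and the macrophage markers to 114, 252, 2217 and 2089 CPM, and their part in the result was not tested.

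The low barcodes were also set against the cells of the same mouse. The somatic-like cells were called higher than the low barcodes for JUNB (log2 difference 3.17 ± 0.66, edgeR, adjusted p = 0.00674) and DUSP1 (1.70 ± 0.53, adjusted p = 0.0388), 2 of 5 tested, where 14.1% of 4922 genes were called and 8.29% were called higher. FOS (1.65 ± 0.73, 0.136), EGR1 (1.57 ± 0.69, 0.136) and JUN (0.85 ± 0.76, 0.489) did not pass. The count of 2 of 5 depends on the filter on low counts, which a gene could pass through its somatic-like sums alone. With no filter 2 of 10 were called, JUNB and IER2. With library totals the median of all genes moved from -0.07 to -0.24, the higher share of calls from 58.7% to 47.2%, and DUSP1 was lost (adjusted p = 0.0596, in a range of 0.000364 to 0.216). DUSP1 was also lost without WT 2, without Ctcf-cKO 1 and without Ctcf-cKO 3. It was lost as well without batch correction and with the stress genes kept in the clustering. Without WT 2 edgeR called 0 genes in all, with 1453 at an unadjusted p under 0.05, among them 5 of the 7 stress genes then tested.

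For germ-like cells minus low barcodes, 0 of 4 stress genes were called by edgeR (0.155% of 7760 genes), although 3 of them, FOS, JUN and DUSP1, had an unadjusted p under 0.05. With DESeq2 the calls were FOS and JUN. The log2 differences were -2.68 ± 0.60 for FOS (adjusted p = 0.127), -2.33 ± 0.63 for JUN (0.359), -1.44 ± 0.60 for DUSP1 (0.710) and 0.08 ± 0.60 for JUNB (0.993). FOS and JUN were called without WT 1, with adjusted p-values of 0.00843 and 0.0101, in ranges of 0.00166 to 0.708 and 0.0101 to 0.998 over the alternatives.

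Stress genes tended to be found together in the same somatic cell. Among the 38 somatic-like cells with a FOS count, 55.3% also had JUNB, 44.7% EGR1, 31.6% JUN, 31.6% IER2, 31.6% DUSP1 and 18.4% FOSB. Among the 143 without FOS the shares were 9.09% for JUNB, 3.50% for EGR1, 8.39% for IER2, 6.99% for DUSP1 and 0.699% for FOSB, and 7 of the 143 had JUN. HSPA1A had a count in 1 of the 38 (2.63%) and in 4 of the 143 (2.80%), too few cells to say whether it follows FOS. The cells with FOS were deeper, with a median of 4275 counts against 2894, and come from 3 mice. Both sets pool the somatic classes, and FOS had a count in 2.38% of the Sertoli-like and 35.5% of the macrophage-like cells. The part of depth and of this mix of classes in the overlap was not tested.

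The overlap with FOS was also counted in germ-like cells. Of the 18 with a FOS count, 16.7% had JUNB, 16.7% JUN, 16.7% IER2 and 16.7% DUSP1, against 5.96%, 2.33%, 2.59% and 7.51% of the 386 without it. In barcodes under 200 genes 299 of 17465 had a stress gene, and never more than 2 of the 10. Of the 76 low barcodes with FOS, 3.95% had JUN and none JUNB, at a median of 268 counts. Of the low barcodes with a stress gene, 291 of 299 had 1 of the 10 genes, against 29 of the 74 somatic-like cells with a stress gene, and the low barcodes were much shallower.

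Over all 24403 barcodes, 29 had counts for 4 or more of the 10 genes: 15 in WT 1, 9 in Ctcf-cKO 1, 5 in Ctcf-cKO 3 and none in WT 2. The most in 1 barcode was 7. Of the 29, 13 were somatic-like cells, among them 9 Leydig-like cells, and 1 was a germ-like cell. A further 12 were not cells by the count limit: they were small barcodes of WT 1 with fibroblast markers.

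**Figure D5:**
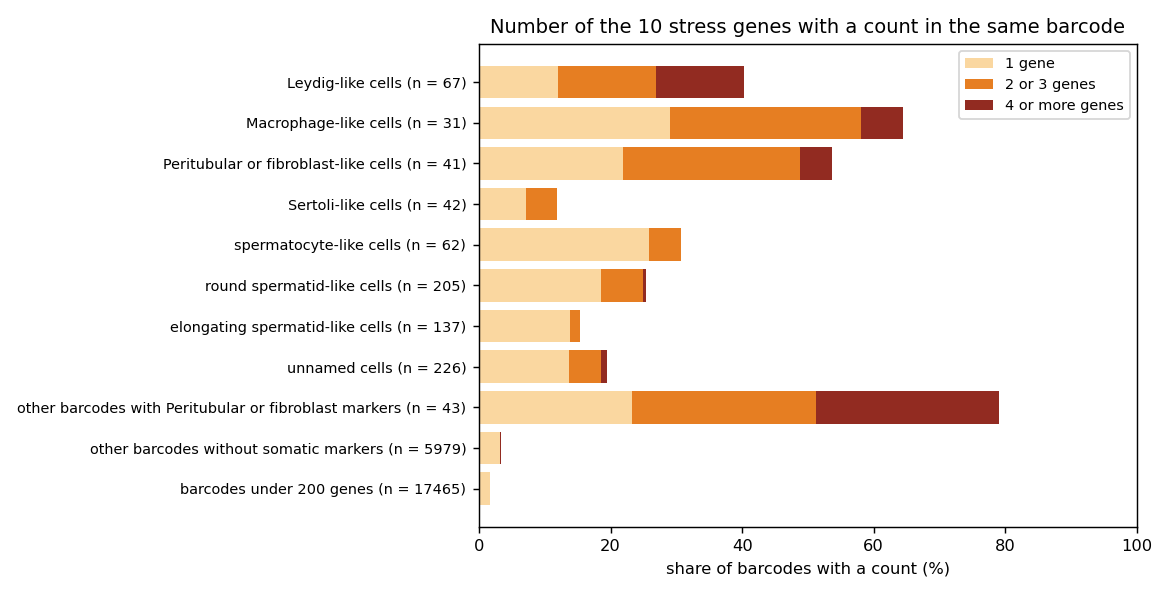
Share of barcodes (%) with a count for 1, for 2 or 3 and for 4 or more of the 10 stress genes, by class over the 4 mice, with the number of barcodes beside each name. The 43 small barcodes with peritubular or fibroblast markers reach 79.1%, above the macrophage-like cells at 64.5%, while barcodes under 200 genes reach 1.71%.

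These small WT 1 barcodes held most of the FOS counts of that mouse. The limit for a cell was 4352 counts in WT 1, and 29 barcodes below it, with 573 to 3863 counts (median 1536), had a count for at least 3 fibroblast markers. They carried 145 of the 218 FOS counts of WT 1, in 20 barcodes (3097 CPM), 67 of its 116 IER2 counts, 60 of its 180 DUSP1 counts, 51 of its 126 JUNB counts and 45 of its 90 EGR1 counts. They also held 15 of the 21 ATF3 counts, 28 of 50 FOSB counts and 18 of 80 JUN counts. At least 1 stress gene was present in 26 of the 29, and 12 had 4 or more.

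The other small barcodes of WT 1 were shallower, with a median of 1023 counts against 1536. Of its 4073 without somatic markers 138 had a stress gene and 1 had 4 or more. Small barcodes with Leydig markers in WT 1 had a stress gene in 1 of 24. In the other libraries, where the limit was lower, small barcodes with fibroblast markers numbered 5 in WT 2, 6 in Ctcf-cKO 1 and 3 in Ctcf-cKO 3. Of these, 4, 2 and 2 had a stress gene, none with 4 or more. In the larger fibroblast-like cells of WT 1 FOS had 10 counts, all in 1 of the 3 cells (3.33 counts per cell). In the 16 cells of Ctcf-cKO 1 FOS stood at 1.25 counts per cell, with counts in 4 of them. In the 20 cells of Ctcf-cKO 3 there were 18 FOS counts, beside 145 in the 29 small barcodes of WT 1.

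When the small barcodes with somatic markers were added to the somatic-like cells, an alternative chosen after seeing the data, the genotype difference changed sign for 5 of the 6 genes. It became -0.65 for FOS, -0.44 for JUNB, -0.12 for EGR1, -0.56 for IER2 and -0.85 for DUSP1, and was 0.80 for JUN, with adjusted p-values between 0.939 and 0.999. edgeR called 0 of 7, and none of the 7 had an unadjusted p under 0.05. DESeq2 was not run on these sums.

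The wider families moved partly with the 10 genes over all barcodes. Beside 28.5% of all genes called and 18.4% called higher in this comparison, of 9 other AP-1 and ATF genes 7 were tested and 3 were called higher in Ctcf-cKO, among them JUND (log2 difference 0.95) and ATF4, a factor of the integrated stress response (1.81). Of 35 other immediate early genes 34 were in the tables and 30 were tested. Of these 13 were higher, among them IER3 (4.70), GADD45A (3.82) and ZFP36 (3.41), whose product degrades AU-rich messages, and 1 was lower, the neuronal gene ARC (-1.26). The 3 with most counts, BTG1 (-0.40), KLF4 (-0.76) and MCL1 (0.27), did not pass. The list medians were 1.81 and 1.12, beside -0.04 over all genes. In barcodes under 200 genes 2 of 3 AP-1 and ATF genes tested, among them ATF4, and 5 of 19 immediate early genes (IER3, KLF6, ZFP36, NFKBIA and RHOB) were higher, beside 5.84% of all genes, and in somatic-like cells 0 of 3 and 0 of 17 passed. Between somatic-like and germ-like cells ATF4, 1 of 2 tested, and 4 of 12 immediate early genes (ZFP36L1, NFKBIA, CEBPB and CEBPD) were higher in the former, beside 10.5% of all genes.

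The heat shock genes moved in both directions. Over all barcodes 14 of the 15 on the list were tested, and 5 were called higher in Ctcf-cKO, beside 18.4% of all genes tested. These were the small heat shock proteins CRYAB (3.44) and HSPB1 (2.83), the mitochondrial chaperonins HSPD1 (2.44) and HSPE1 (2.09), and HSP90AB1 (1.70). HSP90AA1, its stress-inducible HSP90 counterpart, was lower (-2.06), and the list median was 0.29. The 2 with most counts on the list beside HSP90AA1, DNAJB4 (-0.19) and DNAJB1 (-0.23), did not pass. HSPA8, the constitutive HSP70, was listed with 1 count over the 4 libraries, which was named after its values were seen.

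HSP90AB1 was the 1 of 10 heat shock genes tested that was called higher in barcodes under 200 genes, beside 5.84% of all genes. Between genotypes in somatic-like cells 0 of 7 passed, as did 0% of all genes. HSPE1, HSP90AB1 and HSPA5, 3 of 7 tested, were higher in somatic-like than in germ-like cells, beside 10.5% of all genes. HSPA2 was lower in somatic-like cells (log2 difference -1.82). The testis relatives of HSP70 had much higher counts than the inducible pair in germ cells, but how reads shared by HSP70 copies were counted is not given in the sources used here, and HSPA8 with its 1 count and HSPA1A and HSPA1B may be affected. HSPA2 was at 2225, 1439, 1381 and 629 CPM in spermatocyte-like cells of WT 1, WT 2, Ctcf-cKO 1 and Ctcf-cKO 3, and HSPA1L at 1697, 1324, 2055 and 1340 CPM in elongating spermatid-like cells. HSPA1A reached 3.32 CPM in the germ-like cells of WT 2 and had no count in those of the other 3 mice, and HSPA1B had 3 counts, all in 1 cell of Ctcf-cKO 1. CPM of 3′ libraries counts transcript ends, so these levels compare messages without a length correction. Over all barcodes HSPA2 was lower in Ctcf-cKO (-0.87), and HSPA1L (0.48, adjusted p = 0.0652) and HSPA4L (-0.29, adjusted p = 0.256) did not pass.

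Across 29 sums per mouse and class, the patterns of the stress genes were compared with 10768 genes by Pearson's r of log2(CPM + 10), as a description over points that share libraries. FOS was most like IDH2 (0.93), TWF2 (0.91) and JUN (0.90), and JUN was most like FOS. EGR1 was most like EBF1 (0.89), EFEMP1 (0.88) and IDH2 (0.87), and DUSP1 most like OGN (0.85), SPOP (0.84) and HEG1 (0.83). FOSB followed DHRS3 (0.94), JUNB followed GPT2 (0.84), IER2 followed TMBIM1 (0.86) and HSPA1A followed ANKRD50 (0.78). Between the stress genes themselves r ran from -0.01 for DUSP1 with HSPA1A to 0.90 for FOS with JUN.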

How the data were processed

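Droplet libraries of 4 mouse testes were analysed from the count matrices deposited by the authors (genes by barcodes, raw counts; genome build GRCm38; the tool that made the counts is not given in the sources used here). Entries of 1 to 4 made up 84.4% to 90.3% of the non-zero values per library and entries of 5 between 2.81% and 3.54%, so counts may not be independent molecules, and intervals cover counting error only. Cells were barcodes with 200 to 7000 genes, at most 10% mitochondrial counts and at least 3 times the median count of the barcodes ranked 300 to 1000 by counts in their library. Seurat 5.3.0 clustering (2000 variable genes without the stress genes and related lists, 15 components, Harmony correction, resolution 0.9) gave clusters named by at least 3 markers. A cluster with enough markers still stayed unnamed if its 10 leading genes held more markers of another group. It also stayed unnamed if it was shallow for its libraries and none of its markers was among those 10. Doublets were not called. For each class the counts of a mouse were added up and tested in R 4.3.3 with edgeR 4.0.16, using TMM scaling, its default filter on low counts and the quasi-likelihood F test. Adjusted p-values are Benjamini-Hochberg values over all genes tested (threshold 0.05), and the mouse was a block between classes. The scripts were tested on simulated data with a log2 fold of 2 in 200 genes. In barcodes under 200 genes 75 were recovered with 0 false calls. For somatic-like minus germ-like cells 66 were recovered with 4 false calls, and for its genotype difference 0 with 0. The sources name no separate batch, and each mouse is 1 library, so library and mouse cannot be told apart. The 4 mice are the replicates, 2 per genotype, for which a rank or permutation test of 1 gene cannot go below p = 0.333. Alternatives were DESeq2 1.42.0, other scaling, no filter, each mouse left out, other barcode choices and, added after seeing the data, counts divided by 4 and small barcodes with somatic markers. The 10 stress genes were named in every comparison, and of related lists at most the 3 with most counts and up to 5 that passed. The genes and lists were chosen with earlier results of these data known. The values of 1 gene of a related list are not reported here.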

Additional observations from a re-analysis of the deposited data

Results flagged for a closer look

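HSPA1A moved in opposite directions in the 2 genotypes when somatic-like cells were set against barcodes under 200 genes of the same mouse, in every mouse. The difference was -9.53 CPM in WT 1 and -5.08 CPM in WT 2, and 12.6 CPM in Ctcf-cKO 1 and 28.3 CPM in Ctcf-cKO 3. It rests on 0, 0, 5 and 9 counts in somatic-like cells and 1, 3, 3 and 0 counts in the low barcodes, so both WT values are at or under the limit of 3 counts, and the difference between genotypes was not tested.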

How the results depend on the processing

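Over the settings tried for the single stress genes, 299 kept direction and side of the threshold, 28 kept the direction but were no longer called, 20 became called and 23 changed direction; the cause was not tested. The genotypes were compared without pairing, because their mice are different animals and the labels pair none of them. Cell classes were compared within mice. Counts divided by 4 and small barcodes with somatic markers were chosen after seeing the data.

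Leaving out 1 mouse at a time gave 1710 to 4444 genes and 5 to 7 stress genes over all barcodes, 132 to 1344 and 0 to 4 in barcodes under 200 genes, 0 to 631 and 0 to 4 in somatic-like cells, 17 to 111 genes in spermatocyte-like, 0 to 49 in round and 82 to 319 in elongating spermatid-like cells. It gave 282 to 916 genes for somatic-like minus germ-like cells with 2 to 3 stress genes (without WT 2 JUN, EGR1 and IER2 in place of FOS, JUNB and DUSP1), 0 to 171 and 0 to 2 for its genotype difference, 1 to 133 and 0 to 2 for germ-like cells minus low barcodes, and 0 to 913 and 0 to 3 for somatic-like cells minus low barcodes. Without 1 mouse the log2 difference over all barcodes ran from -1.45 to 0.81 for ATF3 and from -0.023 to 1.09 for HSPA1A. In somatic-like cells it ran from -0.37 to 1.47 for JUNB and from -0.15 to 1.14 for DUSP1, in round spermatid-like cells from -6.75 to 1.37 for DUSP1, and for germ-like cells minus low barcodes from -0.059 to 0.012 for JUNB.

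With DESeq2 the genes called were 3 in somatic-like, 101 in spermatocyte-like, 20 in round and 165 in elongating spermatid-like cells (with 1 stress gene), 1719 for somatic-like minus germ-like cells, 3 for its genotype difference, 51 for germ-like cells minus low barcodes (2 stress genes) and 1398 for somatic-like cells minus low barcodes, and ATF3 over all barcodes was 0.046. DESeq2 size factors gave 17 genes for the genotype difference. Library totals gave 1 gene in round and 50 in elongating spermatid-like cells, 21 for the genotype difference and 1 stress gene for somatic-like cells minus low barcodes. With no filter 2 genes were called in somatic-like and 42 in round spermatid-like cells, 1411 genes and 5 stress genes for somatic-like minus germ-like cells, and 36 and 1 for germ-like cells minus low barcodes.

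With barcodes under 100 genes 163 genes and 1 stress gene (JUN, not JUNB or EGR1) were called between genotypes. DUSP1 was -0.32 there, and JUNB in germ-like cells minus low barcodes -0.079. Counts divided by 4 gave 4 stress genes in low barcodes, 67 genes in elongating spermatid-like cells, 556 genes and 1 stress gene for somatic-like minus germ-like cells, 14 for its genotype difference and 31 for germ-like cells minus low barcodes, with JUNB at -0.35. With as many barcodes as the study counts, 78 genes were called for the genotype difference and 20 for germ-like cells minus low barcodes (JUNB -0.40), and DUSP1 in somatic-like cells was -0.0051. Without batch correction elongating spermatid-like cells gave 0 genes, somatic-like minus germ-like cells 6 stress genes, germ-like cells minus low barcodes 3 genes and somatic-like cells minus low barcodes 370, JUNB, IER2 and DUSP1 in somatic-like cells were -0.83, -0.54 and -0.35, and spermatocyte-like cells were too few for a fit. With the stress genes kept in the clustering 27 genes were called in spermatocyte-like cells, 16 in elongating spermatid-like cells and 441 for somatic-like cells minus low barcodes, with JUNB at -0.16 in somatic-like cells and -0.35 in germ-like cells minus low barcodes. With small barcodes with somatic markers added, the genotype difference of the contrast gave 0 genes, and FOS, JUNB, EGR1, IER2 and DUSP1 in somatic-like cells were -0.65, -0.44, -0.12, -0.56 and -0.85.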
